A study of Mus musculus with 20 samples.

Results

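The comparison described here asks what CpG adds to macrophages that already receive interferon gamma (IFN-γ), and it uses 12 of the 20 libraries of the series. The members were defined by their labels: the 6 libraries given IFN-γ plus CpG and the 6 given IFN-γ alone. This choice was made with earlier results of these data known. Each arm held 2 libraries at each of 3, 9 and 15 h, so that time in culture was matched. Cells of both arms were macrophages grown with M-CSF, from L929 conditioned medium, out of the marrow of C57BL/6 mice. IFN-γ is therefore in every library compared, and CpG is the difference. The protocols in the labels also describe IL-4 with IL-10 treatment and a 24 h stimulation; whether either applies to these libraries is not stated. The series describes the 2 libraries of a group as biological replicates, without naming animals or cultures.

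IFN-γ acts through its cell surface receptor and raises antigen presentation and the interferon-inducible GTPases in macrophages. CpG DNA is sensed in endosomes by TLR9, which signals through MYD88 to NF-κB, MAP kinases and IRF5, and turns on inflammatory cytokine genes. Active enhancers are themselves transcribed in both directions into short, unstable RNAs, and the capped 5' ends of these RNAs can be counted. The agonist is shown because its sequence defines the treatment. The protocol in the labels, the one with the 24 h stimulation, names CpG ODN-1826, an oligonucleotide of 20 bases with 2 CG dinucleotides, here in capitals, the element that TLR9 senses.

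ODN-1826: tccatgaCGttcctgaCGtt

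The assay, nAnT-iCAGE, reads the capped starts of transcripts from unamplified cDNA, and the deposited table counts such tags over 11222 regions listed as enhancers. Levels are in RPM, the tags of an enhancer scaled to the reads of its whole library. The 12 whole libraries were of similar size, and 12879 to 29794 tags of each lay in enhancers. Replicates correlated at r = 0.671 to 0.766 on log2(RPM + 0.5), across the 1835 enhancers with enough tags to be tested. Counting error alone did not account for their spread. Over the regions with enough tags in a pair, chi-square over its degrees of freedom was 1.16 to 1.28 in the 6 pairs. Enhancers are named by their mm39 position as deposited. Genes, promoters and cell type markers near them were not analysed here, because the annotation at hand is of another build. In bulk RNA such as this, fewer cells with an active enhancer and less RNA per cell cannot be told apart.

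Enhancer transcription as a whole took 1327 ± 261 RPM with IFN-γ (mean ± SD, n = 6; range 991 to 1794) and 1708 ± 360 RPM with IFN-γ plus CpG (n = 6; range 1325 to 2202). The arms overlapped. The mean of the 3 within-time differences was 382 RPM, and an exact permutation test with labels exchanged within each time gave a two-sided p = 0.111, where the smallest possible is 0.00926. At 9 h the pairs lay at 1280 and 1794 RPM with IFN-γ and 1393 and 1325 with both stimuli. Without IFN-γ 9 h replicate 2 the difference was 468 RPM (exact permutation p = 0.0185). The difference in total tags thus did not reach 0.05 in this test, and a single library set on which side of 0.05 it fell.

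Within that total, CpG shifted many single enhancers in both directions. Of the 1835 enhancers with enough tags to be tested, 399 were called (21.7%): 222 were higher with IFN-γ plus CpG than with IFN-γ alone (12.1% of those tested) and 177 were lower (9.65%), at a Benjamini-Hochberg adjusted p under 0.05 in edgeR's quasi-likelihood test with time as a block. The median log2 difference was 2.11 among the rises (0.63 to 6.75) and -1.71 among the falls (-4.99 to -0.65), against -0.02 over all tested enhancers. A difference of at least 2 log2 units was reached by 127 rises and 62 falls. Among the rises, 206 had a higher mean RPM with both stimuli at each of the 3 times, as 498 of all 1835 tested did. Among the falls, 137 had a lower one, as 282 of all tested did. The calls rest on the same libraries, so neither count is separate support. All 6 libraries with both stimuli stood above all 6 with IFN-γ at 95 of the rises (5.45% of all tested enhancers did so) and below them at 26 of the falls (1.42%). Coverage was thin, at a median of 4 tags for a tested enhancer in a library.

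The balance of rises and falls depended on the scaling of libraries. Factors from the enhancer tags (TMM) gave 55.6% rises among the calls. Whole-library totals moved the median of all tested enhancers from -0.02 to 0.17 log2 and gave 253 rises and 93 falls, or 73.1% rises. Under that scaling all 222 rises were called again, 93 of the 177 falls were, and none was called the other way. DESeq2 called 173 rises and 100 falls. Without IFN-γ plus CpG 9 h replicate 2 the falls numbered 113, and without its 15 h replicate 2 they numbered 118.

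**Figure D1:**
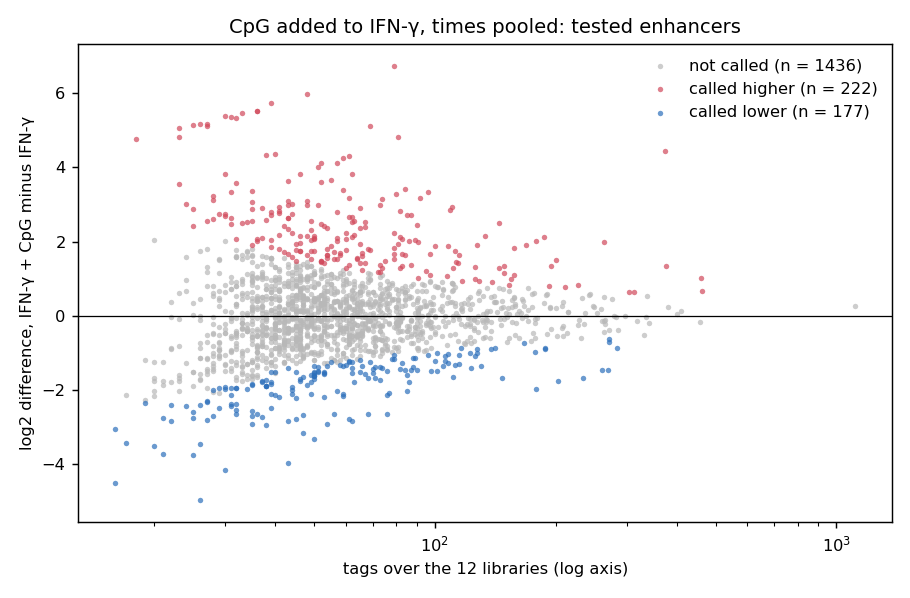
Log2 difference between IFN-γ plus CpG and IFN-γ alone (vertical axis) against the tags over the 12 libraries (horizontal log axis) for each of the 1835 tested enhancers, 1 point each. The 222 called higher and 177 called lower lie at all depths, and the smallest called differences, near 0.63 and -0.65, are among the enhancers with the most tags.

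The largest rises were enhancers that were silent or nearly so under IFN-γ. By the rule for named enhancers, the 12 largest rises had a mean of at least 5 tags a library with both stimuli and a higher mean at every time. They are called Rise 1 to Rise 12 here, in order of log2 difference. With such a ranking at thin coverage, few tags with IFN-γ follow largely from the choice. At 6 of the 12, no IFN-γ library held a tag. The log2 values of these 6, up to 6.75, are set by the fit, since a ratio to no tags has no finite size. Their places in the order are therefore not measured sizes. In all, 16 tested enhancers had no tag in the 6 IFN-γ libraries, and all 16 were called higher; such enhancers passed the filter through the other arm, so the direction was fixed by the choice.

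Rise 1, chr3:58424715-58425015, had no tag with IFN-γ alone. With both stimuli its replicates held 0.433 and 0.443 RPM at 3 h, 0.908 and 1.45 at 9 h, and 0.738 and 2.03 at 15 h. All 6 were above the IFN-γ arm, and the 3 h pair was the lowest. The arm held 79 tags against 0, at least 26.4-fold higher when the IFN-γ arm is set to a floor of 3 tags (edgeR adjusted p = 1.97e-14). The floor covers counting error only.

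Rise 2, chr9:88842125-88842581, went from no tag to 48 tags (at least 16.1-fold higher, edgeR adjusted p = 1.18e-08). Rise 4, chr6:49478371-49478772, held 33 tags (at least 11.0-fold, edgeR adjusted p = 1.58e-05). Its replicates were 0.217 and 0.443 RPM at 3 h, then 0.303 and 0.685, and finally 0.221 and 0.624, so that tags were present in both libraries at each time. Rise 3, chr10:94475258-94475429, had most of its tags late: 1 tag in the 3 h pair, 8 in the 9 h pair and 27 in the 15 h pair, with IFN-γ at 0 throughout (at least 12.0-fold, edgeR adjusted p = 1.44e-05).

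Rise 5, chr17:18091886-18092287, was highest at 3 and 9 h. With both stimuli it stood at 0.578 and 0.443 RPM at 3 h, 0.303 and 0.609 at 9 h and 0.221 and 0.156 at 15 h, and it had no tag with IFN-γ (at least 10.4-fold, edgeR adjusted p = 4.52e-05). Whether the difference changed with time could not be tested at any of Rise 1 to Rise 6, because no IFN-γ library held a tag there at any time. Rise 6, chr12:32355817-32356233, stood at 0.289, 0.296, 0.151 and 0.304 RPM at 3 and 9 h and, highest, at 0.664 and 0.702 by 15 h. Its 32 tags were at least 10.7-fold above the floor (edgeR adjusted p = 4.61e-05).

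The most precisely measured of these was Rise 9, chr19:11349540-11350041. With IFN-γ it held 0 and 0.0769 RPM at 3 h, 0.144 and 0.436 at 9 h, and 0.227 and 0.224 at 15 h. With both stimuli it held 0.578 and 1.33 at 3 h, 5.0 and 4.87 at 9 h, and 7.82 and 7.64 at 15 h. The arms did not overlap, and replicates at 9 and 15 h differed by far less than the arms. With 360 tags against 15, the arms were 4.44 ± 0.32 log2 units apart (SE; edgeR adjusted p = 2.87e-39).

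The remaining 5 had 1 or 2 tags with IFN-γ, so their ratios are given with counting intervals. Rise 7, chr6:65119693-65120076, had 68 tags against 1, or 68.3-fold (95% interval of counting error 11.8 to 2740; edgeR adjusted p = 3.00e-10). Rise 8, chr2:77937049-77937442, had 79 against 2 (39.7-fold, 10.6 to 333; edgeR adjusted p = 6.45e-12). Rise 10, chr16:27206285-27206710, had 39 against 1 (39.2-fold, 6.63 to 1590). Rise 11, chr10:66699987-66700680, had 37 against 1 (37.1-fold, 6.27 to 1510), with 2 of its 37 tags at 3 h. Rise 12, chr12:54451908-54452205, had 59 against 2 (29.6-fold, 7.84 to 250). Of the 12, all except Rise 3 and Rise 11 had every library with both stimuli above every IFN-γ library; at Rise 10 this rests on 1 tag in its lowest library with both stimuli against 1 tag in its highest IFN-γ library. All 12 stayed called under every alternative in which they could be tested. The alternatives reuse the libraries from which the 12 were picked for their size, so this is not separate support.

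**Figure D2:**
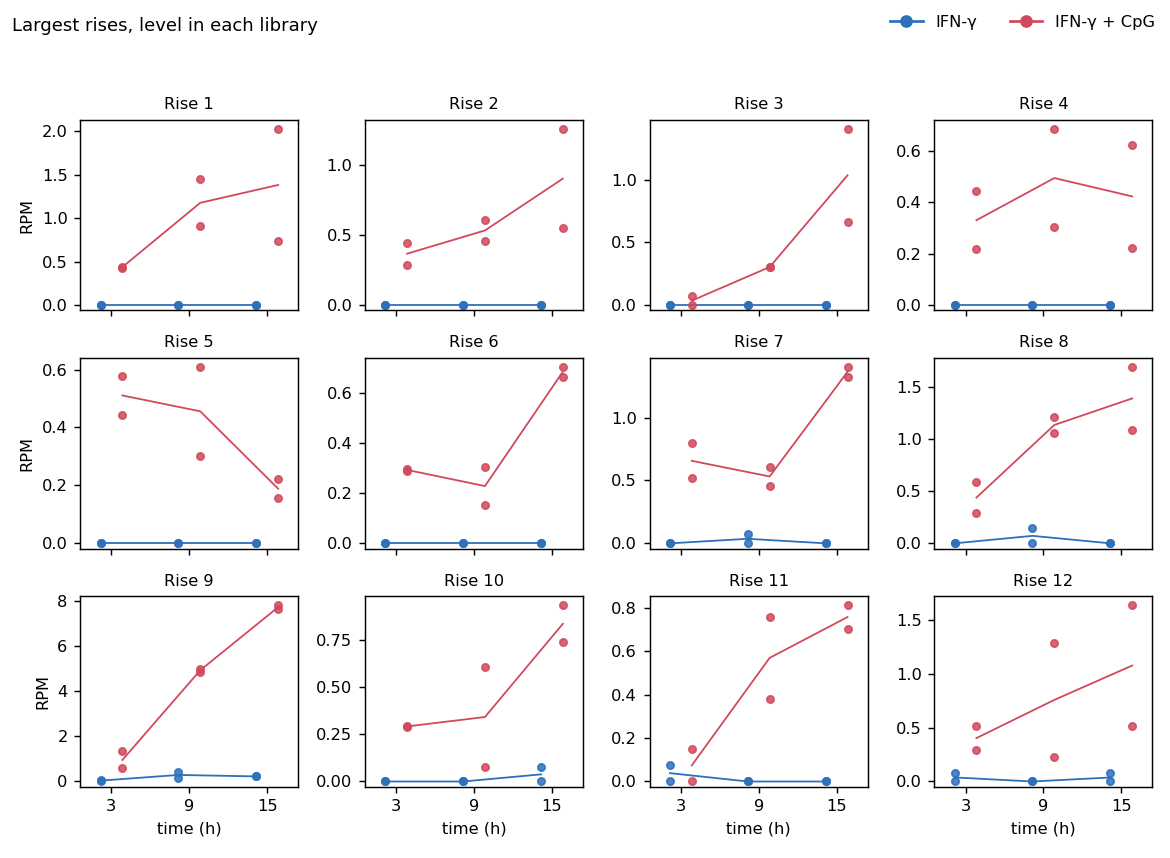
Level in RPM (vertical axis, own scale in each panel) of the 12 largest rises at 3, 9 and 15 h, with 1 point per library and lines through the means of 2 libraries, for IFN-γ and for IFN-γ plus CpG. The IFN-γ points lie at or near 0 in each panel; Rise 9 reaches 7.82 RPM with both stimuli at 15 h, and Rise 5 is lowest at 15 h.

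Of the 5 rises with the most tags, Rise 9 was among the largest and the other four were between 0.62 and 1.34 log2 units. At chr13:5839351-5839665 the IFN-γ libraries lay between 0.832 and 1.36 RPM at all times. With both stimuli the replicates held 4.4 and 6.28 RPM at 3 h, 2.35 and 2.66 at 9 h and 2.36 and 3.12 at 15 h. Every library with both stimuli was thus above every IFN-γ library, and they were 1.34 ± 0.23 log2 units higher (SE; edgeR adjusted p = 5.45e-07). At chr2:30818921-30819384, with 463 tags in all, the mean rose from 2.09 ± 0.753 to 3.68 ± 0.874 RPM (SD, n = 6), a log2 difference of 0.65 ± 0.21 (edgeR adjusted p = 0.0135), and the arms overlapped. That call was lost without 9 h. At chr1:58766221-58766761, levels fell with time in both arms, from 2.65 and 2.23 RPM at 3 h to 0.908 and 0.524 at 15 h with IFN-γ. With both stimuli they went from 3.75 and 3.7 to 2.07 and 1.79 RPM. The log2 difference of 0.62 ± 0.24 (edgeR adjusted p = 0.0415) was not called by DESeq2 or in 9 other settings.

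The largest falls were enhancers transcribed under IFN-γ and reduced to a few tags when CpG was added. The 10 largest that met the rule are called Fall 1 to Fall 10. That rule asked for a mean of at least 5 tags a library with IFN-γ and ranked by log2 difference. At this coverage, few tags with both stimuli therefore follow largely from the choice. Fall 1, chr13:37529896-37530155, held 0.378 and 0.231 RPM with IFN-γ at 3 h, 0.505 and 1.09 at 9 h and 0.529 and 0.299 at 15 h. With both stimuli 4 libraries had no tag, and 1 library each at 9 and 15 h had a single tag (0.0757 and 0.0738 RPM). The arms did not overlap: 41 tags stood against 2 (20.4-fold lower, 95% interval of counting error 5.30 to 174; edgeR adjusted p = 1.70e-06).

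Fall 3, chr5:120696843-120697231, was even under IFN-γ, from 0.433 to 0.68 RPM over the 6 libraries, and lay between 0 and 0.156 with both stimuli. It fell by 3.16 ± 0.62 on the log2 scale (SE; edgeR adjusted p = 9.98e-06). Fall 5, chr4:135912762-135913073, differed little at 3 h, with 2 tags against 1. At 9 h the IFN-γ replicates held 0.794 and 0.799 RPM against 0 and 0.0761, and at 15 h 0.908 and 0.898 against 0.148 and 0.156. Its pooled fall of 2.92 ± 0.60 on the log2 scale (edgeR adjusted p = 3.31e-05) thus rested mostly on tags of the 2 later times. A change of the difference with time was not called (edgeR interaction test, adjusted p = 0.832).

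Fall 10, chr7:80050791-80051156, had a single high library, IFN-γ 3 h replicate 1 at 1.97 RPM, with its partner at 0.231. At 9 and 15 h the IFN-γ libraries held 0.227 to 0.726 RPM against 0 to 0.0757 with both stimuli, and the call was kept without the high library. The remaining 6 largest falls lay between 2.79 and 3.32 log2 units below IFN-γ, on 35 to 62 tags each. Of the 10, Falls 2, 4, 5 and 10 had arms that overlapped in at least 1 library. Fall 7, chr19:9999863-10000179, and Fall 4, chr14:65338493-65339086, each lost the call in 1 alternative, without 15 h. The others kept it in every alternative in which they could be tested. As for the rises, the alternatives reuse the same libraries and are not separate support.

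**Figure D3:**
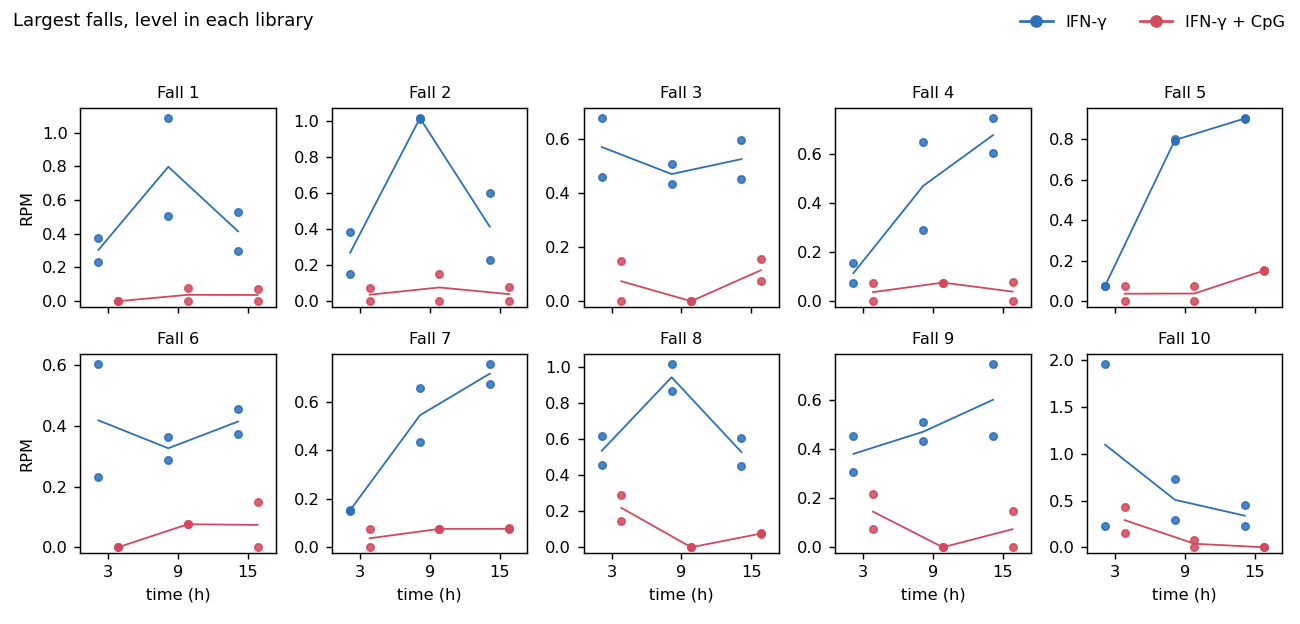
Level in RPM (vertical axis, own scale in each panel) of the 10 largest falls at 3, 9 and 15 h, with 1 point per library and lines through the means of 2 libraries. The points with both stimuli lie near 0 at 9 and 15 h in each panel, and the single high point of Fall 10 is the IFN-γ 3 h library at 1.97 RPM.

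Of the 5 falls with the most tags, the larger ones, at chr8 and chr12, were apart at 15 h but not at 3 h. A change of the difference with time was not called at either (edgeR interaction test, adjusted p = 0.393 and 0.19). At chr8:84928192-84928495 the IFN-γ replicates held 2.12 and 1.31 RPM at 3 h, 2.81 and 2.18 at 9 h and 2.87 and 2.84 at 15 h. With both stimuli they held 1.01 and 1.77, then 0.605 and 0.837, then 0.811 and 0.936. The pairs overlapped at 3 h and were apart at 9 and 15 h, and the enhancer fell by 1.46 ± 0.25 on the log2 scale (SE; edgeR adjusted p = 4.20e-07). At chr12:69410829-69411146 the 3 h pairs also overlapped (3.17 and 1.0 against 1.08 and 2.29 RPM), while at 15 h 1.66 and 1.87 RPM stood against 0.221 and 0.468. It fell by 1.46 ± 0.26 (edgeR adjusted p = 6.61e-07). Smaller falls at chr3:94665389-94665621, chr5:114083055-114083713 and chr7:89780744-89781448, of 0.65 to 0.87 log2 units, were not called with whole-library totals. Over all 27 alternatives the call was lost in 2 at chr3:94665389-94665621, in 13 at chr5:114083055-114083713 and in 19 at chr7:89780744-89781448, with DESeq2 among them at the latter pair.

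Differences were measured more often at later times. Within single times edgeR called 44 enhancers higher and 20 lower at 3 h (2.4% and 1.09% of those tested), 114 and 69 at 9 h (6.21% and 3.76%), and 161 and 108 at 15 h (8.77% and 5.89%). Only 2 libraries stand on each side of such a comparison. The median difference of the 222 pooled rises was 1.73, 2.30 and 2.56 log2 units at 3, 9 and 15 h, and that of the 177 falls -1.32, -2.05 and -2.20. Over all tested enhancers it was 0.03, -0.10 and -0.004. Left to 2 times, the pooled comparison called 449 enhancers without 3 h, 251 without 9 h and 189 without 15 h. Whether these counts differ between times was not tested.

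For single enhancers, the change of the difference with time was tested as an interaction. It was called at 19 of 1835 enhancers by edgeR (1.04%; 262 at an unadjusted p under 0.05) and at 0 by DESeq2's likelihood ratio test (105 unadjusted), so these calls rest on the tool. Without IFN-γ plus CpG 3 h replicate 1 there were 7, and without IFN-γ 9 h replicate 1 there were 10. Of the 19, 3 were among the pooled rises and 3 among the falls. The remaining 13 were not called in the pooled comparison.

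The 4 with the smallest interaction p all changed sign between times. At chr11:117878837-117879183, CpG went with a higher level at 3 h (3.97 and 5.62 RPM against 2.12 and 1.92) and a lower one at 15 h (0.664 and 0.39 against 1.89 and 1.57). The pairs did not overlap at any of the 3 times. The log2 difference went from 0.74 ± 0.30 at 3 h to -0.82 ± 0.50 at 9 h and -1.99 ± 0.44 at 15 h (SE; edgeR interaction adjusted p = 0.00126).

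At chr2:48584475-48584861 the replicates with both stimuli held 1.3 and 1.55 RPM at 3 h, 0.0757 and 0 at 9 h and 0.148 and 0 at 15 h. The IFN-γ libraries stayed between 0.378 and 0.726 RPM throughout. The pairs were apart at each time, above IFN-γ at 3 h and below it later (edgeR interaction adjusted p = 0.00126). At chr5:92109227-92109609 both stimuli gave 1.37 and 1.7 RPM at 3 h and 0.0757 and 0 at 9 h, against 1.13 and 0.231 and 0.866 and 1.02 with IFN-γ (edgeR interaction adjusted p = 0.00126).

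The opposite course was seen at chr4:141600258-141600694. It held 0.722 and 0.739 RPM with both stimuli against 1.36 and 0.923 with IFN-γ at 3 h, then 2.42 and 2.97 against 0.505 and 1.31 at 9 h. At 15 h it held 1.92 and 1.79 against 0.529 and 0.673 (edgeR interaction adjusted p = 0.00131). A further enhancer named for its depth, chr5:121537641-121537963, kept its level with both stimuli, between 3.58 and 4.57 RPM in all 6 libraries. With IFN-γ it was at 3.7 and 1.77 RPM at 3 h and at 1.13 and 0.748 at 15 h. Its log2 difference was -0.01 ± 0.29 at 3 h, 1.40 ± 0.31 at 9 h and 1.83 ± 0.35 at 15 h (edgeR interaction adjusted p = 0.0174).

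**Figure D4:**
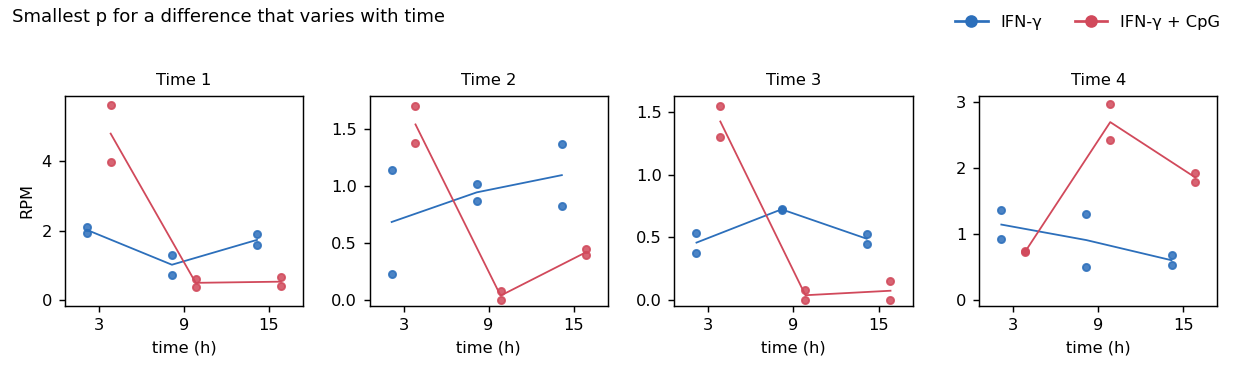
Level in RPM (vertical axis, own scale in each panel) of the 4 enhancers with the smallest p for a difference that varies with time, in the order chr11, chr5, chr2 and chr4, with 1 point per library and lines through the means of 2 libraries. In the panels Time 1 to Time 3 both stimuli start above IFN-γ at 3 h and lie below it at 9 and 15 h; in Time 4 the order is reversed.

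The same enhancers could be read in 8 libraries that the comparison did not use: 6 given CpG alone at 3, 9 and 15 h and 2 unstimulated at 0 h. In a fit over all 20 libraries, CpG alone against unstimulated cells was called higher at 86 of the 1835 enhancers (4.69%) and lower at 91 (4.96%). Of the 222 rises, 62 were called higher with CpG alone (27.9% of the rises and 72.1% of the 86), and 1 was called lower. Of the 177 falls, 34 were called lower with CpG alone (19.2% of the falls and 37.4% of the 91), and 0 were called higher. Time in culture is not matched in this second reading. Without unstimulated replicate 1, CpG alone was called higher at 29 enhancers, 26 of them rises, and lower at 38, 19 of them falls. Without unstimulated replicate 2 these counts were 27 with 21, and 35 with 14.

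By sign alone, 199 of the 222 rises had a positive difference with CpG alone (908 of all 1835), and 136 of the 177 falls a negative one (864 of all). The median differences with CpG alone were 1.66 log2 units for the rises, -0.82 for the falls and 0 for all tested enhancers. Of the tested enhancers, 63 had no tag in any of these 8 libraries. Across the 1835 enhancers, which are not independent, the differences correlated at r = 0.548, with all libraries sharing the same regions and scaling.

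Rise 9, chr19:11349540-11350041, went the same way with CpG alone, at 0.598 and 0.382 RPM at 3 h, 2.83 and 3.56 at 9 h and 4.84 and 4.77 at 15 h, against 0.362 and 0.0744 in unstimulated cells (edgeR adjusted p = 7.23e-09). Rise 6, chr12:32355817-32356233, held at most 1 tag in each CpG-alone library, 0.063 ± 0.0309 RPM (SD, n = 6), and none in unstimulated cells, beside 0.401 ± 0.226 with both stimuli. At chr5:121537641-121537963, 3.94 ± 0.414 RPM with both stimuli stood beside 1.79 ± 1.02 with IFN-γ and 0.467 ± 0.0698 with CpG alone. The differences between both stimuli and CpG alone were not tested here.

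Falls differed in the same way in their levels without IFN-γ. Fall 4, chr14:65338493-65339086, had no tag in any of the 8 libraries without IFN-γ, 0.42 ± 0.283 RPM with IFN-γ (SD, n = 6) and 0.0506 ± 0.0392 with both stimuli. Fall 3, chr5:120696843-120697231, by contrast, held 0.868 and 0.968 RPM in unstimulated cells and 0.466 ± 0.217 with CpG alone, beside 0.0629 ± 0.0746 with both stimuli. At chr8:84928192-84928495 unstimulated cells held 5.21 RPM in both libraries, more than any stimulated library of the 3 kinds.

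**Figure D5:**
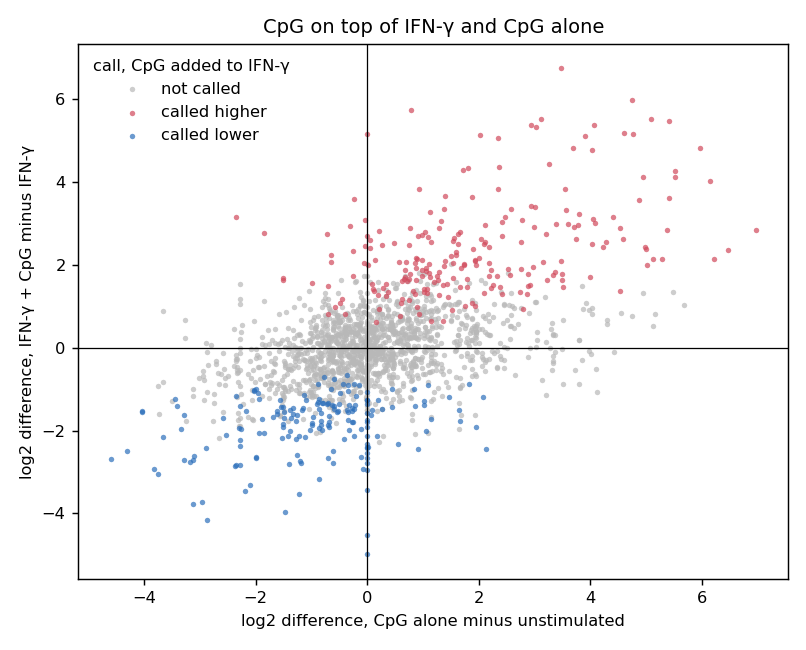
Log2 difference between IFN-γ plus CpG and IFN-γ (vertical axis) against the log2 difference between CpG alone and unstimulated cells (horizontal axis) for the 1835 tested enhancers, 1 point each, from libraries that the axes do not share. Most of the 222 rises lie to the right of 0 (199) and most of the 177 falls to the left (136); the points on the vertical line had no tag in the 8 libraries of the horizontal axis.

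Some of the called enhancers lay near others called in the same direction, though most did not. Of the 222 rises, 94 (42.3%) had another rise within 100 kb and 12 (5.41%) a fall, while 15.3% of all tested enhancers had a rise within that distance and 13.1% a fall; these shares were not compared by a test. Of the 177 falls, 48 (27.1%) had another fall within 100 kb and 7 (3.95%) a rise. Neighbours share chromatin and possibly transcripts, so these are not independent observations. Chains of called enhancers with at most 100 kb between neighbours included 16 with 3 or more members, of which 8 held rises only, 4 falls only and 4 both. The loci described next were chosen after their values were seen, and are given as levels summed over their tested enhancers, without a test.

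At chr17:18047677-18121430, which holds Rise 5, all 5 tested enhancers were called higher. Their sum was 0.183 ± 0.187 RPM with IFN-γ (SD, n = 6; 0 to 0.433) and 1.99 ± 0.622 with both stimuli (0.939 to 2.58), so that the arms were apart. CpG alone gave 1.48 ± 0.695 and unstimulated cells 0.33 ± 0.0452 (n = 2). Of the members of this locus, Rise 5 and chr17:18102988-18103257 had no tag with IFN-γ, so their direction was fixed by the filter. The call was lost in 1 of 26 alternatives at chr17:18091073-18091425 and in 2 of 26 each at chr17:18047677-18048572 and chr17:18102988-18103257. At chr17:18121001-18121430 it was lost in 6 of 26. At chr1:171444368-171508928, all 5 were also called higher, with a sum of 1.57 ± 0.594 RPM against 5.44 ± 1.62. The member chr1:171508679-171508928 was not called by DESeq2, and chr1:171446627-171446942 was not either.

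At chr10:18817214-18888845, 4 of 5 tested enhancers rose, and the sum went from 0.87 ± 0.448 to 3.17 ± 1.47 RPM, with arms that overlapped. At chr4:62185308-62206227, 4 of 5 rose, and the sum went from 1.29 ± 0.275 (0.756 to 1.53) to 3.97 ± 1.39 RPM (1.73 to 5.85). In the latter the 4 members differed by 0.01 to 0.53 log2 units at 3 h and by 1.45 to 2.84 at 9 and 15 h. A change with time was called at none of the 4 (edgeR interaction adjusted p = 0.38 to 0.604). In the pooled comparison DESeq2 did not call 2 of these members, chr4:62199652-62199926 and chr4:62205680-62206227. With CpG alone the locus on chr10 held 2.07 ± 0.543 RPM beside 1.25 ± 0.182 in unstimulated cells (n = 6 and 2), with libraries that overlapped. The locus on chr4 held 2.16 ± 0.881 beside 0.474 ± 0.25, and these did not overlap.

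At 3 of the 4 loci of falls alone, every IFN-γ library stood above both unstimulated libraries; the exception is the locus on chr14. At chr11:58849729-58870635 the 3 tested enhancers summed to 2.9 ± 0.831 RPM with IFN-γ, 1.29 ± 1.02 with both stimuli, 0.128 ± 0.16 with CpG alone and 0.148 ± 0.107 in unstimulated cells. At chr16:10270380-10299571 the sums were 1.54 ± 0.657, 0.593 ± 0.699, 0.0252 ± 0.0391 and 0.0362 ± 0.0511 RPM in the same order. At all 4 such loci, the arms overlapped over the 3 times together. The member chr11:58850818-58851268 differed by -0.08 log2 units at 3 h, then by -2.18 and -2.68 at 9 and 15 h. A change with time was not called there (edgeR interaction adjusted p = 0.115), but was at chr11:58870081-58870635 (0.0201). At chr16:10270380-10270601 the differences at 3, 9 and 15 h were 0.39, -3.18 and -2.74, with an edgeR interaction adjusted p of 0.00318.

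At chr17:34480410-34524064 the 3 tested enhancers summed to 1.7 ± 0.828 RPM with IFN-γ, 0.448 ± 0.158 with both stimuli, 0.125 ± 0.0899 with CpG alone and 0.296 ± 0.213 in unstimulated cells. Of its members, chr17:34523716-34524064, with 29 tags, lost the call in 21 of 26 alternatives, RLE factors, whole-library totals and DESeq2 among them. The other two members each lost it in 1 alternative, a time left out. At chr14:65337930-65339793, 3 falls, Fall 4 among them, lay within 1.86 kb. Their sum was 1.53 ± 0.918 RPM with IFN-γ and 0.4 ± 0.0969 with both stimuli, beside 0.554 ± 0.374 in unstimulated cells. Of the other members of these 4 loci, chr11:58849729-58850370 was not called with whole-library totals. DESeq2 did not call that enhancer, chr14:65337930-65338331, chr16:10293853-10294118 or chr16:10299427-10299571.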

How the data were processed

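nAnT-iCAGE libraries were compared in 6 groups of 2: IFN-γ and IFN-γ plus CpG at 3, 9 and 15 h. Per the submitters' processing notes, reads on mm39 were handled with HISAT2 2.1.0, BWA 0.7.10, Trimmomatic 0.38 and FastQC 0.11.5. How enhancers were called is not given in the sources used here. Tag counts per enhancer, not normalized, were deposited by the authors, with a second table, whose deposited values are RPM of the whole library, since count divided by value gave 1 total per library (12825701 to 13855472 in the 12).

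The test on counts was edgeR's robust quasi-likelihood F-test (version 4.0.16 in R 4.3.3; two-sided), with TMM factors, time as a 3-level block (8 residual degrees of freedom) and Benjamini-Hochberg adjustment over all tested enhancers. The filter (filterByExpr, minimum count 5, minimum total 15) kept 1835 of 11222. The standard error is the log2 difference divided by the square root of F. P-values measure the spread between these libraries, which may be technical in part. Fold floors take 3 tags over an arm. On simulated data with these means and 1835 enhancers, the pooled test recovered 29.4% of 2-fold, 79.4% of 4-fold and 100% of 8-fold rises. Of its calls, 3.45% were false. The simulated enhancers all shared the same spread between libraries, with about as many rises as falls, and the scaling of libraries was not varied. The false share therefore need not hold for the 399 calls.

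Named enhancers were the 12 largest rises and 10 largest falls (mean of at least 5 tags in the higher arm, same direction at all 3 times), the 5 rises and 5 falls with most tags, and the 4 smallest interaction p. The members and rules were chosen with earlier results of these data known. Planned gene lists, marker checks and motif counts were not run, because the reference at hand is GRCm38. Neighbour distances, summed loci and their alternatives were added after the data were seen. Alternatives were RLE factors, whole-library totals, DESeq2 1.42.0, other filters, replicate blocks, other sets of libraries and limma 3.58.1 on log2(RPM + 0.5, 0.1 or 2).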

Additional observations from a re-analysis of the deposited data

Results flagged for a closer look

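Within an arm of 6 libraries, the level of each named enhancer with a tag there, and the total of enhancer tags, was examined for a library far from the other 5, as the gap to its nearest neighbour divided by the range of the arm, against Dixon's 95% critical value. Of 66 arms, 11 passed it, all of them of single enhancers. The critical value is set to pass about 1 arm in 20 under a normal spread. That rate need not hold for arms of few tags over 3 times, so the number passed was not compared with it. An arm with all its tags in 1 library passes by construction. In 4 IFN-γ arms with a ratio of 1.0 a single library held the only tags: chr6:65119693-65120076, chr2:77937049-77937442, chr16:27206285-27206710 and chr10:66699987-66700680, with 1, 2, 1 and 1 tags. At chr19:9999863-10000179 (0.946) the library apart was the only one with both stimuli that had no tag, the others having 1 each. High single libraries with both stimuli were those of chr9:88842125-88842581 (0.668; 1.25 RPM at 15 h against 0.609 in the next), chr7:80050791-80051156 (0.659; 0.433 at 3 h against 0.148) and chr8:84928192-84928495 (0.653; 1.77 at 3 h against 1.01). High single IFN-γ libraries were those of chr7:80050791-80051156 (0.713; 1.97 at 3 h against 0.726), chr13:37529896-37530155 (0.652; 1.09 at 9 h against 0.529) and chr5:121537641-121537963 (0.643; 3.7 at 3 h against 1.8). Arms span 3 times, so a library can stand apart by its time.

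The effect of CpG differed between times by the edgeR interaction test at chr11:117878837-117879183, chr5:92109227-92109609 and chr2:48584475-48584861 (adjusted p = 0.00126 each), chr4:141600258-141600694 (0.00131) and chr5:121537641-121537963 (0.0174). DESeq2 called none of the 1835 enhancers in this test.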

How the results depend on the processing

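Falls depended on the setting more than rises: 177 falls became 93 with whole-library totals, 100 with DESeq2, 114, 117 and 106 with limma at pseudocounts 0.5, 0.1 and 2, 80 without 9 h and 59 without 15 h. The 222 rises became 362 with no filter (11114 enhancers tested) and 130 without 15 h. The stricter filter left 464 enhancers, with 77 rises and 68 falls, or 145 calls. All calls together, 399, became 251 without 9 h and 189 without 15 h. Enhancers whose difference varied with time, 19, became 0 with DESeq2, 7 with no filter and 55, 29 and 77 with limma at the same 3 pseudocounts. Some of these settings tested fewer enhancers or fitted fewer libraries. The cause of the changes was not tested.

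With 1 library left out and the same 1835 enhancers, calls numbered 328 to 431, rises 197 to 236, falls 113 to 201 and time-varying differences 7 to 16. The difference in total enhancer tags was 283 to 481 RPM (exact permutation p = 0.0185 to 0.222), and the p under 0.05 was that without IFN-γ 9 h replicate 2, at 467.6 RPM.

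Same-numbered libraries did not deviate together (r = -0.014, 0.0363 and 0.00401 at 3, 9 and 15 h). With pairs as a replicate block, 192 rises, 125 falls and 12 time-varying differences were called, and with the replicate number as a block factor 220, 165 and 19. Sign flips over the 6 pairs gave p = 0.188 for the total (exact).

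Over 86 enhancers (those named and the members of the 16 chains), 1990 of 2278 alternative values kept direction and side of the threshold. Pooled differences changed sign in 2, both of time-varying enhancers that were not called: chr2:48584475-48584861 at 0.012 without 9 h and chr11:117878837-117879183 at 0.25 without 15 h. With a median of 4 tags for a tested enhancer in a library, changes of 2-fold are mostly below what these libraries can show.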

Other observations

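Some loci held enhancers that moved in opposite directions, in 4 of the 16 chains. At chr6:31065481-31103342, chr6:31065481-31065857 fell from 0.46 to 0.139 RPM (log2 difference -1.87 ± 0.55, SE; edgeR adjusted p = 0.00544). Its neighbours chr6:31091887-31092927 and chr6:31098569-31098826 rose from 0.196 to 0.792 and from 0.123 to 0.669 RPM (1.83 ± 0.45 and 2.17 ± 0.52; edgeR adjusted p = 6.74e-04 and 5.09e-04). The third rise there, chr6:31102981-31103342, was not called by DESeq2 (edgeR adjusted p = 0.0321). At chr19:9891520-10000179, Fall 7 (from 0.47 to 0.0629 RPM) lay beyond 3 rises. Of these, chr19:9891520-9892102 was not called by DESeq2, and chr19:9955696-9956283 went from 0.26 to 0.778 RPM (edgeR adjusted p = 0.00976).

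At chr2:131860136-131993901, chr2:131952699-131952981 fell from 0.768 to 0.288 RPM (edgeR adjusted p = 0.00114) between 2 rises, of which chr2:131993602-131993901 went from 0.31 to 1.13 RPM (edgeR adjusted p = 1.30e-04) and was also higher with CpG alone than in unstimulated cells (log2 difference 3.22; edgeR adjusted p = 1.96e-06). At chr1:190913707-190918170, within 4.46 kb, chr1:190914133-190914606 was lower (0.248 against 0.51 RPM; edgeR adjusted p = 0.0391) between 2 rises, but this call was lost in 19 of 26 alternatives. These loci were chosen after their values were seen.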
